A study of Mus musculus with 6 samples.

Results

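The genes Fabp1, Fabp5, Glyat, Ddc, Rnase4 and Ang, which are characteristic of enterocytes or hepatocytes or related to such genes, were followed in KPC cells after silencing of Brca2. They were picked by symbol, on the basis that genes of this kind stood higher in KPC-shBrca2 than in KPC-shControl cells, and all 6 were among the 10616 genes of the count table. The values below are therefore a description of the 6 genes. Where a call by the test over all genes is given for them, it too is descriptive. Neither a call nor its return with a library left out is support for a change. KPC is a mouse pancreatic ductal adenocarcinoma cell line. It was transduced with lentiviral pLKO.1 vectors carrying either an shRNA against Brca2 (shBrca2, 3 libraries) or a non-targeting shRNA (shControl, 3 libraries), and both groups passed through puromycin selection. The cells were cultured, live cells were sorted, and 3' end RNA-seq libraries were made from their poly(A) RNA, so both groups share the line, the vector backbone and the sort. The sources used here do not say whether the 3 libraries of a group came from separate cultures or from 1 clone, and any p-value below measures the spread between these libraries only. Of the 6, 5 were higher in every shBrca2 library than in any shControl library, as were 10.2% of all listed genes. Of those 5, 4 met the criteria for a called gene, while 0.77% of genes with an adjusted p were called higher. Nothing is read from either count, as the genes were picked for this contrast. Fabp5 was not raised, against the basis on which it was picked.

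These genes belong to the metabolic and secretory equipment of the gut and the liver. Fabp1, the liver fatty acid-binding protein, ferries long-chain fatty acids through the cytosol of enterocytes and hepatocytes, and Fabp5 is its relative in epidermis and many other epithelia. Glyat is a mitochondrial enzyme of liver and kidney that joins glycine to acyl-CoA compounds such as benzoyl-CoA. Ddc, aromatic L-amino acid decarboxylase, makes dopamine and serotonin in neurons and is also abundant in kidney, gut and liver. Ang (angiogenin) and Rnase4 are small secreted ribonucleases, both abundant in liver, which are transcribed from a common promoter region and split their coding sequences between separate last exons.

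The upstream sequences of 3 windows are shown because they carry what is shared and what is not among these genes. RefSeq (GRCm38.p6) gave 7 windows for 5 of the 6 genes, Fabp5 being the one without an entry, and each window is the 250 bases before an annotated transcription start, 5' to 3' on the gene's own strand. Fabp1 lies on chromosome 6 (71199879 to 71205034, plus strand) and its window is chr6:71199629-71199878. Ddc lies on chromosome 11 (11814101 to 11898144, minus strand) and has a pair of annotated starts, of which the outer one is shown, with the window chr11:11898145-11898394. Rnase4 (51091077 to 51106151) and Ang (51091077 to 51102009) lie on the plus strand of chromosome 14, begin at the same base, and so share the window chr14:51090827-51091076, while Rnase4 has a further annotated start downstream. Capitals mark the match to HNF1, to DR1 and to TATA described beneath.
Fabp1: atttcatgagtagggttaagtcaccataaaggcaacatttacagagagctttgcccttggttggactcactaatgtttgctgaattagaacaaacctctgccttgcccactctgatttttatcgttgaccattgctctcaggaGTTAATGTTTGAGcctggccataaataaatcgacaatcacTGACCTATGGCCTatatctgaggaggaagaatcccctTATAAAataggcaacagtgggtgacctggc
Ddc, outer start: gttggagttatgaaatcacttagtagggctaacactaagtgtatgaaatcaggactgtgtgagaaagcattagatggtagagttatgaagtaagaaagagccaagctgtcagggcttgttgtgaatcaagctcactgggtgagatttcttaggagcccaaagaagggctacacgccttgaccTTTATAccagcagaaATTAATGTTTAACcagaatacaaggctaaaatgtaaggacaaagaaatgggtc
Rnase4 and Ang: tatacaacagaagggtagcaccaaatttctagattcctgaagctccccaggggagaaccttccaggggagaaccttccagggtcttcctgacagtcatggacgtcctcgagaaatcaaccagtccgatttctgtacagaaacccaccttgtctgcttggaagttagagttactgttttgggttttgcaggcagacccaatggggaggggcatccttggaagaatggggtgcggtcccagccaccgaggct

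The motif letters searched on both strands were GTTAAT and ATTAAC separated by any 1 base for the HNF1 factors of liver, gut and kidney, AGGTCA repeated after any 1 base for the DR1 element read by PPAR with RXR and by HNF4A, and TATAAA for the TATA box, and the matches in capitals do not overlap each other. The Fabp1 window held GTTAATGTTTGAG at -107 to -95 from the start, with 3 mismatches to the HNF1 letters, a closeness reached by 7.58% of 32817 distinct windows. It also held TGACCTATGGCCT at -67 to -55, a DR1 match on the opposite strand with 1 mismatch, reached by 0.485% of windows. An exact TATAAA stood at -30 to -25, as 12.4% of windows hold somewhere. The outer Ddc window held ATTAATGTTTAAC at -53 to -41, with 2 mismatches to the HNF1 letters, reached by 1.24% of windows, and TTTATA at -68 to -63, which is TATAAA on the opposite strand. The window common to Rnase4 and Ang had no HNF1 or DR1 match within 4 mismatches and no TATAAA, and the same held for a second Rnase4 window (chr14:51095750-51095999), which Ang does not have. The window of the inner Ddc start (chr11:11890409-11890658) and the window of Glyat (chromosome 19, 12633308 to 12651737, plus strand) came no closer than 4 mismatches to either motif and held no TATAAA. A match describes letters only, and the 3' end counts do not show which start was used.

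The 6 libraries held from 1519340 to 2452467 counts and detected from 10532 to 10593 of the listed genes. The library shControl 3 stood apart on the leading principal component (0.74, with 41.1% of the variance), and shControl 1 on the next (-0.81, with 23.7%). Brca2 followed its labels, with a normalized count of 12.1 ± 1.61 in shBrca2 libraries against 36.5 ± 6.14 in those of shControl (SD, n = 3). Normalized counts are raw counts divided by DESeq2 size factors. A gene was called at an adjusted p under 0.1 by the DESeq2 likelihood ratio test over all genes, a log2 fold change beyond 0.5 in either direction, and a mean normalized count over the 6 libraries (the base mean) above 5. In bulk cells, a change in the share of cells that use a gene and a change in its RNA per cell cannot be told apart.

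Of the 6 genes, 4 met the criteria for a call in the higher direction, Fabp1, Glyat, Ddc and Rnase4, while 0.77% of the 9997 genes with an adjusted p were called higher. The normalized counts of 5 genes, these 4 and Ang, were higher in every shBrca2 library than in any shControl library, which held for 10.2% of all listed genes, while 10.1% were lower in every shBrca2 library. As the genes were picked for this contrast, nothing is read from either count. All 6 genes passed the filter on low means (a base mean of 4.64), but Fabp1 and Glyat, the latter at a base mean of 6.25, passed through their levels in shBrca2 alone. The 6 genes differed widely in level, so that their precision differed too. Rnase4 had a base mean of 217 and Fabp1 one of 10.4.

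**Figure D1:**
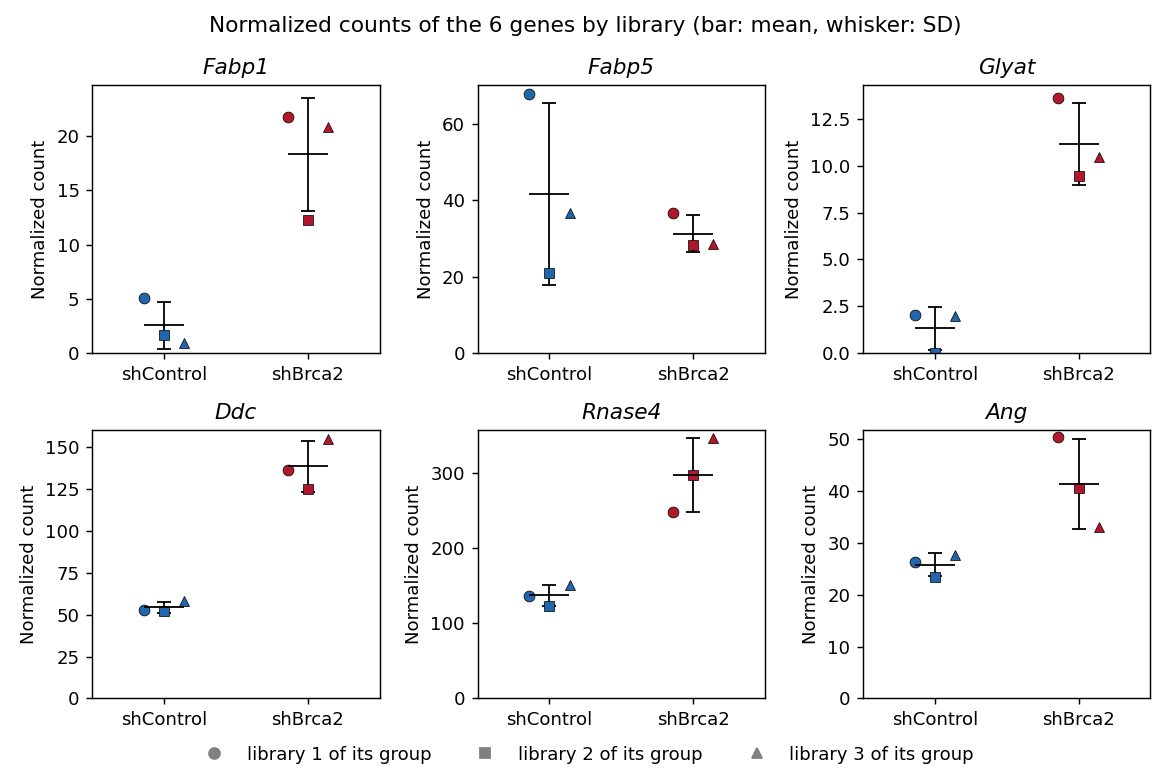
Normalized counts (y axis, linear, from 0, a scale per panel) of the 6 genes in 3 shControl (blue) and 3 shBrca2 (red) libraries, with the mean (bar) and SD (whisker). The shBrca2 libraries lie above all shControl libraries for Fabp1, Glyat, Ddc, Rnase4 and Ang, while for Fabp5 the shControl libraries span 20.96 to 67.7 and enclose the shBrca2 libraries.

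The lipid carriers did not behave alike. Fabp1 had normalized counts of 21.8, 12.3 and 20.9 in shBrca2 and of 5.05, 1.68 and 0.989 in shControl, from raw counts of 16, 13 and 24 against 5, 2 and 1. All shBrca2 libraries were above the highest shControl library, and shControl 1 was the highest of its group. The means were 18.3 ± 5.24 and 2.57 ± 2.17 (SD, n = 3), and the log2 fold change was 2.85 ± 0.77 (SE). Summed over libraries, 53 counts in shBrca2 stood against 8 in shControl, a ratio per total count of 7.19 with an exact 95% interval of 3.40 to 17.5, which covers counting error only. Across the 6 fits that each left out 1 library, the log2 fold change ranged from 2.48 without shControl 3 to 3.75 without shControl 1. The call was kept in 1 of these fits, without shControl 1, and lost in 3, while 2 gave no adjusted p.

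Fabp5 (chromosome 3, 10012585 to 10016610, plus strand) had normalized counts of 36.8, 28.4 and 28.7 in shBrca2 and of 67.7, 20.96 and 36.6 in shControl. The groups overlapped, and shControl 1 alone was above every shBrca2 library by a wide margin. The log2 fold change of -0.42 ± 0.42 (SE) was about as large as its error, and without shControl 1 it turned to 0.12. Fabp1 was thus higher in every shBrca2 library, while Fabp5 had no settled direction. Both carriers were counted in all 6 libraries, the liver-type one at only a few counts in shControl.

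Glyat had raw counts of 10, 10 and 12 in shBrca2 and of 2, 0 and 2 in shControl. Every shControl library was at or under a detection floor of 3 counts per library. The normalized count of 11.2 ± 2.18 (SD, n = 3) in shBrca2 was 3.69 times the highest such floor. This ratio sets the observed mean against the floor. It holds no error of the shBrca2 counts and is not a confidence bound for the fold change. The direction was the same in all 6 fits that left out 1 library, but none of these fits called Glyat. Of these, 4 gave no adjusted p and 2 missed the threshold, those without shControl 1 and without shControl 2.

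Ddc rested on more counts. Its normalized counts were 136, 125 and 155 in shBrca2 and 52.5, 51.99 and 58.3 in shControl. The groups were far apart, with the lowest shBrca2 library above the highest shControl library by more than the range of either group. The means were 139 ± 15.2 and 54.3 ± 3.51 (SD, n = 3), 2.55-fold apart, and the log2 fold change was 1.36 ± 0.24 (SE). Leaving out 1 library moved it between 1.27 and 1.43, and the call was kept in all 6 fits. A pair of noncoding genes, Gm51937 and 1700042O10Rik, lie within Ddc on the opposite strand, and without knowledge of the strand setting of the counting its count is uncertain by their share.

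Rnase4 was the most abundant of the 6 genes by 3' end count. Its normalized counts were 248, 297 and 345 in shBrca2 and 136, 123 and 151 in shControl. The groups did not overlap, and the spread within shBrca2 was the wider. The means were 297 ± 48.8 and 137 ± 14.0 (SD, n = 3), 2.17-fold apart, and the log2 fold change of 1.12 ± 0.20 (SE) moved between 1.00 and 1.23 when 1 library was left out, with the call kept in all 6 fits.

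Ang, which begins at the same base as Rnase4, had normalized counts of 50.4, 40.6 and 33.1 in shBrca2 and of 26.3, 23.5 and 27.7 in shControl. All shBrca2 libraries were above the shControl libraries, though shBrca2 3 only narrowly. The means were 41.4 ± 8.69 and 25.8 ± 2.14 (SD, n = 3), and the log2 fold change of 0.67 ± 0.37 (SE) did not meet the criteria for a call, with all libraries or with any 1 left out. Mouse Ang has relatives, of which Ang2, Ang3, Ang4, Ang5 and Ang6 were not in the table. Whether reads were shared between Ang and these genes was not tested, and its count is uncertain to that extent.

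The balance between the ribonucleases was uneven in shBrca2. There were 5.19, 5.25 and 5.46 raw counts of Rnase4 for each count of Ang in the shControl libraries, and 4.92, 7.30 and 10.4 in shBrca2. The shBrca2 library with the lowest normalized count of Rnase4 had the highest of Ang, and the one with the highest Rnase4 had the lowest Ang. The last exons of the genes lie 1189 bases apart in GENCODE vM39 (on GRCm39), so 3' end reads can separate them, while reads in the leading exons that they share cannot. How the counting treated such reads is not given in the sources used here. Of the other 18 ribonuclease A family genes fixed for this comparison that RefSeq places on chromosome 14, 0 were in the table and they were not analysed here.

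**Figure D2:**
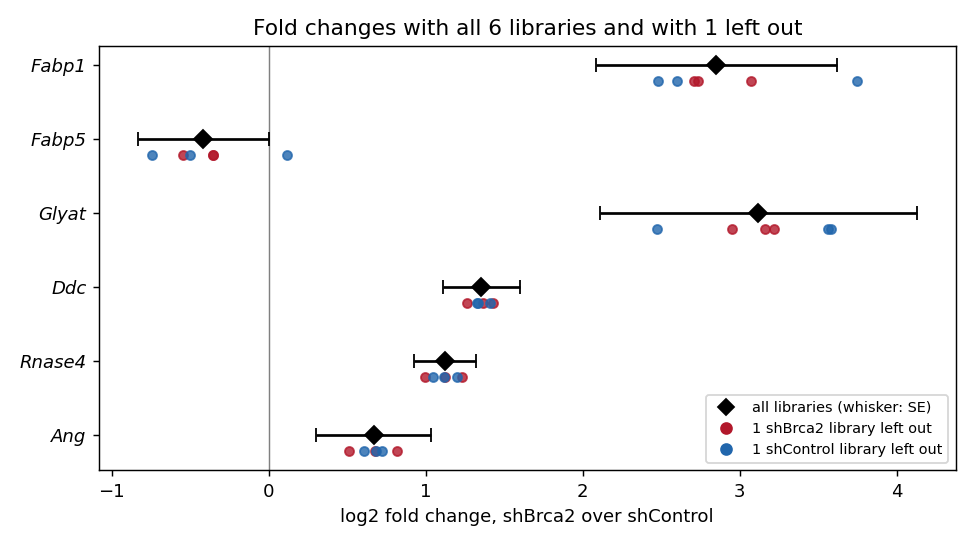
log2 fold change (x axis, shBrca2 over shControl) of the 6 genes with all 6 libraries (black diamond, whisker SE) and in the 6 fits that each left out 1 library of shBrca2 (red) or shControl (blue). Ddc (1.27 to 1.43) and Rnase4 (1.00 to 1.23) hardly moved, Fabp1 ranged from 2.48 to 3.75, and Fabp5 crossed 0 only without shControl 1 (0.12). The fitted value of Glyat is imprecise, as its shControl libraries were at or under the floor.

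The wider programs around these genes were then counted in 8 lists, with the 6 genes themselves left out. The lists were chosen with earlier results of these data known. Their shares and medians are therefore a description and not independent support. Of 198 listed genes, 88 were in the table and 85 had an adjusted p. By the DESeq2 likelihood ratio test 5 of the 85 rose, among them Vil1, Alpi, Ttr and Sox9, and 0 fell, which is 5.88%, against 1.27% of all genes called in either direction. With edgeR the same 5 genes were called and again 0 fell. The median log2 fold change over the 85 genes was 0.19, and over all genes tested it was -0.00094, with 49.8% of all genes tested above 0. All 5 called genes stood in the marker and transcription factor lists, and the lists built on the biochemistry of the 6 genes held none. With 1.27% of all genes called, this is not read as a difference between the lists.

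Of the enterocyte markers, 17 of 36 were in the table and 15 were tested, of which 2 rose and 0 fell. Their median log2 fold change was 0.73, with 13 of 15 above 0. Vil1, which encodes villin, the actin bundler of brush border microvilli, had normalized counts of 271, 245 and 201 in shBrca2 and 148, 135 and 104 in shControl. The groups did not overlap, and the log2 fold change was 0.89 ± 0.21 (SE, adjusted p = 0.00693 by DESeq2). Alpi, the intestinal alkaline phosphatase of the same brush border, had 12.3, 28.4 and 23.5 against 6.06, 2.52 and 3.96, a log2 fold change of 2.39 ± 0.66 (SE, adjusted p = 0.0273 by DESeq2). Vil1 missed the threshold without shBrca2 1 (adjusted p = 0.126 by DESeq2) and without shControl 3 (0.103), and Alpi had no adjusted p without shBrca2 2 and missed the threshold without shBrca2 3 (0.335), without shControl 2 (0.347) and without shControl 3 (0.117). With all libraries kept, Alpi had no adjusted p or was filtered out with TMM factors, with total counts as size factors and when at least 10 counts were required in 3 libraries, and its base mean of 12.8 was under the stricter minimum of 20. In the main fit Alpi passed the filter on low means through shBrca2 alone, as its shControl mean was 4.18.

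Other brush border and gut epithelial genes lay on the same side without passing the test, and are named here after their values were seen. Cdh17, the liver-intestine cadherin, had a mean of 694 ± 40.1 against 457 ± 135 in shControl (SD of normalized counts, n = 3), a log2 fold change of 0.61 (adjusted p = 0.129 by DESeq2). Mep1a, a brush border metalloprotease, had one of 1.05, and Tm4sf20 one of 1.55. Cdhr5, a microvillar protocadherin, had a fitted one of 2.33, which is imprecise. Its raw counts in shControl were 1, 3 and 3, all at or under the floor of 3 counts. The adjusted p-values of these genes ran from 0.163 to 0.299 by DESeq2. In all, 8 of 17 enterocyte markers were higher in every shBrca2 library, and 0 were lower in every one, against 10.2% and 10.1% of all listed genes. Of the 8, Alpi, Apob and Cdhr5 had shControl means of 4.18, 4.05 and 2.16. They passed the filter on low means (4.64) through their levels in shBrca2 alone. Cdhr5 was also listed only through shBrca2. The count is therefore a description and not support. Krt20, an abundant marker of this list, had a log2 fold change of -0.05, and Rbp2, the cellular retinol carrier of enterocytes, one of -0.24 at a base mean of 4.71. The list's median rested in part on low counts. Once at least 10 counts in at least 3 libraries were required, DESeq2 gave only 6 of its genes an adjusted p, and their median was 0.44 with 5 of 6 above 0. Defining genes of absorptive cells such as Sis, Lct, Apoa4 and Slc5a1 were not in the table and were not analysed here.

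Of the hepatocyte markers, 11 of 41 were in the table and were tested, of which 2 rose and 0 fell, with a median log2 fold change of 0.68 and 10 of 11 above 0. Among them Serpina1b, with a shControl mean of 2.22, passed the filter on low means through shBrca2 alone. Ttr, transthyretin, a carrier of thyroid hormone and retinol-binding protein made in the liver, had 65.4, 50.1 and 90.5 against 33.3, 21.8 and 26.7, a log2 fold change of 1.34 ± 0.35 (SE, adjusted p = 0.017 by DESeq2). Its call was lost without shBrca2 3 (adjusted p = 0.483 by DESeq2) and without shControl 2 (0.327).

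The abundant hepatocyte genes of the list did not stand out. For Rbp4, the plasma retinol-binding protein, the log2 fold change was 0.03 ± 0.15 (SE) at a base mean of 2726. Afp, alpha-fetoprotein, had one of 0.61 ± 0.24 (SE, adjusted p = 0.307 by DESeq2), with no overlap between the groups. Alb, Fga and Cps1, which define hepatocytes, were not in the table and were not analysed here. Over the whole list, the summed level ran from 1390 to 1694 CPM (counts scaled to a common library total) in shBrca2 and from 1344 to 1515 in shControl, which overlapped, but most of this sum was Rbp4, as the next gene, Afp, had a base mean of 109. The sum of the enterocyte list ran from 987 to 1057 in shBrca2 and from 723 to 816 in shControl, which did not overlap. Much of this sum was Cdh17 and Krt20, at base means of 576 and 507, and neither was called.

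**Figure D3:**
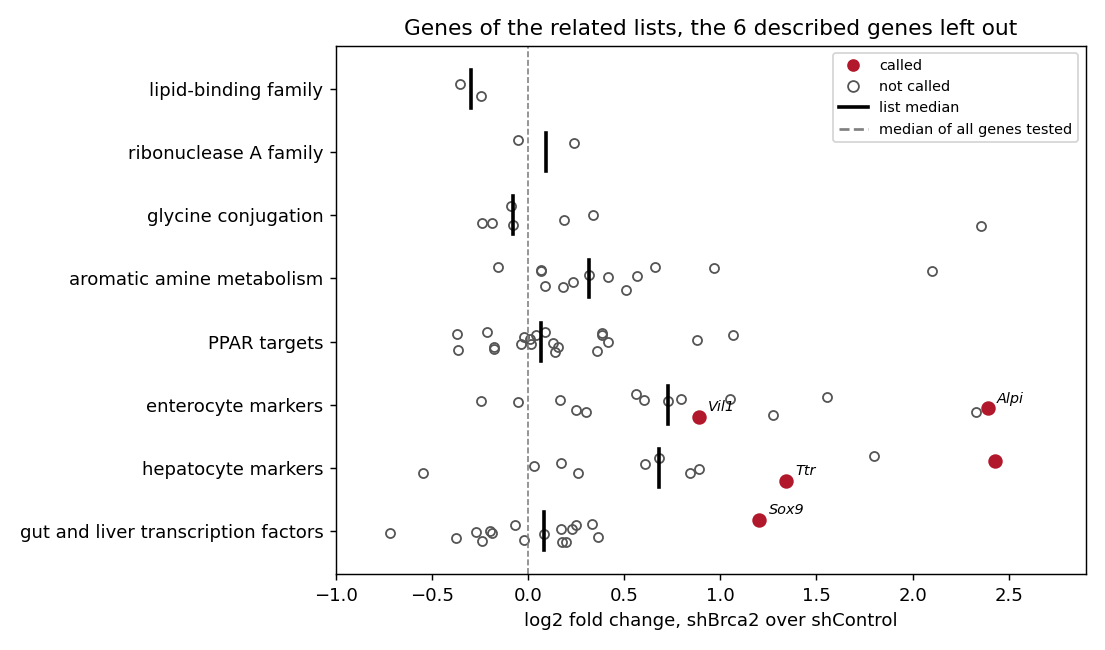
log2 fold change (x axis, shBrca2 over shControl) of each tested gene in the 8 lists, the 6 described genes left out, with called genes in red, the list median as a black bar and the median of all genes tested as a dashed line. The enterocyte and hepatocyte lists have medians of 0.73 and 0.68, and the 5 called genes, 4 of them named, all lie above 0. Vertical scatter within a list has no meaning.

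Of the gut and liver transcription factors, 17 of 22 were tested, of which 1 rose and 0 fell, with a median of 0.08. The gene that rose was Sox9, a factor of ductal and intestinal crypt progenitor cells rather than of mature enterocytes or hepatocytes. Its normalized counts were 54.5, 69.0 and 92.2 in shBrca2 and 25.3, 26.8 and 42.5 in shControl. The log2 fold change was 1.20 ± 0.34 (SE, adjusted p = 0.0391 by DESeq2), and the call was kept without shBrca2 1 and without shControl 3 only. Hnf4a, a master regulator of hepatocyte and enterocyte genes, had means of 772 ± 38.3 and 614 ± 29.96 (SD of normalized counts, n = 3) without overlap, yet its log2 fold change of 0.33 ± 0.14 (SE) did not pass the test (adjusted p = 0.422 by DESeq2). Klf5, the other abundant factor, had one of -0.07 ± 0.20 (SE).

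**Figure D4:**
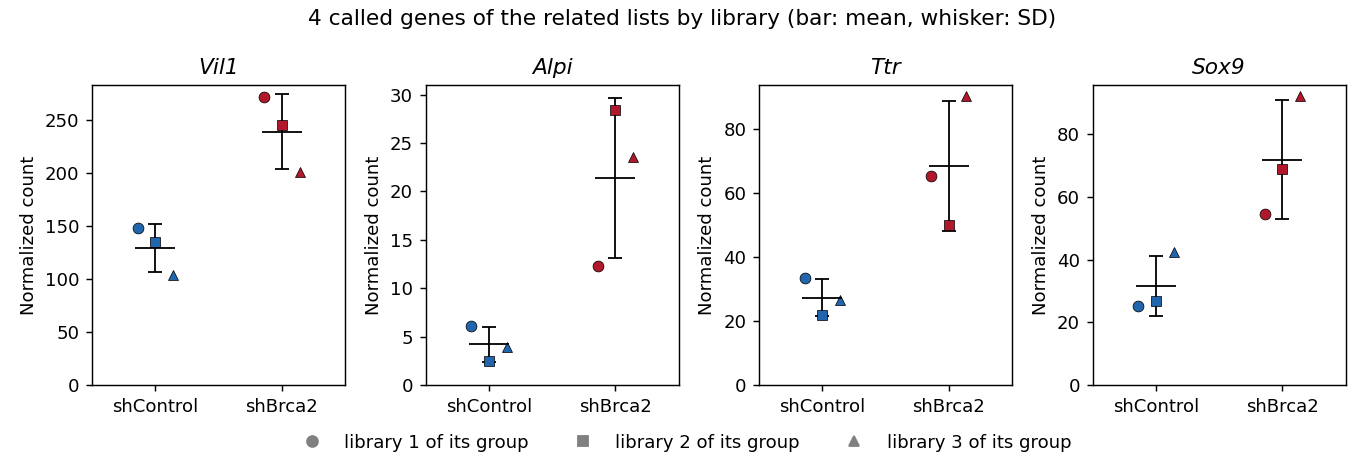
Normalized counts (y axis, linear, from 0, a scale per panel) of 4 called genes of the related lists in 3 shControl (blue) and 3 shBrca2 (red) libraries, with the mean (bar) and SD (whisker). The groups do not overlap in any panel, and Vil1 runs from 201 to 271 in shBrca2 against 104 to 148 in shControl.

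The biochemical partners of the 6 genes gave 0 calls by DESeq2 or by edgeR. As DESeq2 called 1.27% of all genes tested, lists this small could well hold 0 calls, and nothing is read from this count. Of the lipid-binding family, 2 further genes were tested, with a median log2 fold change of -0.30. Around Rnase4 and Ang, the log2 fold change was 0.24 ± 0.15 (SE) for Rnh1, the cytosolic ribonuclease inhibitor, and -0.05 ± 0.21 (SE) for Plxnb2, a receptor for angiogenin. Neither passed the test.

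Around Glyat, 7 genes of acyl-CoA activation and glycine supply were tested, with a median log2 fold change of -0.08. Gcat and Gcsh, the most abundant, had values of -0.09 ± 0.16 and 0.19 ± 0.17 (SE). Around Ddc, 13 genes were tested, with a median of 0.31 and 12 of 13 above 0, and the median ranged from 0.11 to 0.27 when 1 library was left out. Spr and Pcbd1, which serve the synthesis and recycling of tetrahydrobiopterin, had values of 0.09 ± 0.16 and 0.18 ± 0.16 (SE). The hydroxylases Th, Tph1 and Tph2, which supply the substrates of Ddc in amine-producing cells, were not in the table and were not analysed here. Of the PPAR receptors and targets 20 were tested, with a median of 0.07. Plin2, which coats lipid droplets, had a value of 0.01 ± 0.15 and Angptl4, a secreted inhibitor of lipoprotein lipase, one of -0.18 ± 0.17 (SE).

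Markers of the cells themselves and of other cells were read beside these results. All 7 ductal epithelial markers were in the table, with summed levels from 8090 to 8383 CPM in shBrca2 and from 8414 to 9197 in shControl, so that the sum was lower in every shBrca2 library. Most of this sum was Krt18, Krt19 and Krt8, at base means of 9184, 4227 and 2909, none of them called. Epcam was near the floor, at a base mean of 6.52. Of the 7 markers, Krt7, a keratin of ductal cells, rose (log2 fold change 1.21 ± 0.20, SE, adjusted p = 2.07e-06 by DESeq2), as did Sox9. Their part in the results above was not tested. The defining markers of the other types were mostly not in the table, with 1 of 7 fibroblast markers (Col1a2), 1 of 7 leukocyte markers (Cd68), 2 of 7 acinar markers (Prss2 and Cela1), 0 of 4 endothelial and 0 of 7 islet and enteroendocrine markers listed. The summed levels of the listed fibroblast, leukocyte and acinar markers overlapped between the groups, and none exceeded 31.4 CPM in any library.

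The genes whose pattern over the 6 libraries was most like the mean standardized pattern of the 6 genes were Antxr1, Anln, Taok3, Smc1a and Smim6, with Pearson's r from 0.986 to 0.995 among 8975 genes compared. This is a description over 6 libraries that share the groups and the size factors, and 141 genes had an r over 0.9. Antxr1, an anthrax toxin receptor, was called (log2 fold change 0.97 ± 0.29, SE, adjusted p = 0.0798 by DESeq2). With 1 library left out Antxr1 was called only without shControl 1, with adjusted p-values from 0.0993 to 0.559 by DESeq2 over the 6 fits. The other four had log2 fold changes from 0.20 to 0.53 and were not called.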

How the data were processed

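The authors deposited raw counts per gene symbol for 6 libraries of KPC cells, not normalized and with replicates not pooled. Libraries followed a MARS-seq type 3' end protocol on an Illumina NextSeq. The submitters' processing notes list bcl2fastq, cutadapt, STAR 2.4.2a, HTSeq, DESeq2 and the mm10 build. The annotation, the strand setting and the use of molecular identifiers are not given in the sources used here. Every listed gene had at least 6 counts in some library, so genes with low counts enter only if a library was high.

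Groups came from the source name, columns were matched by title, and library numbers follow the order of accession. With R 4.3.3 and DESeq2 1.42.0, the likelihood ratio test (group, intercept as the reduced model) was run on all 10616 genes, with the thresholds of the study's methods and Benjamini-Hochberg adjustment. It gave 9997 genes an adjusted p, and 884 had an unadjusted p under 0.05. Alternatives were edgeR 4.0.16, the Wald test, other size factors, filters and thresholds, and each library left out. The pipeline was tested on simulated data. Total counts of 1519340 to 2452467 limit genes of few counts most, and intervals and floors cover counting error only.

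Counts cover the whole lists, but some of their genes are not reported here. The 6 genes and the gene lists were chosen with earlier results of these data known. Genes named were the 6 genes, Brca2, called genes of the 8 related lists, the 2 other genes of highest base mean in each list, and the 5 genes closest in pattern, by Pearson's r of log2(normalized count + 1) at a base mean of at least 10. Positions and promoters came from RefSeq on GRCm38.p6, the same assembly as mm10, where 10576 symbols matched, and last exons and the strand of Fabp5 from GENCODE vM39 on GRCm39.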

Additional observations from a re-analysis of the deposited data

How the results depend on the processing

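No paired analysis was possible because no replicate number in the labels links a library of shBrca2 to one of shControl. Of the 6 genes, 4 were called in all. The count was 2 (Ddc and Rnase4) with TMM factors, 2 with total counts as size factors, 2 after a filter for 10 counts in 3 or more libraries and 2 with a base mean over 20, as the low-count genes Fabp1 and Glyat then had no adjusted p or too low a mean, and it was 3 or 4 in the other alternatives that kept all libraries. With 1 library left out it ranged from 2 to 3. Called genes over the whole table ranged from 47 to 140 in those fits, and from 94 to 131 with all libraries kept, against 127. With TMM factors, and likewise with total counts, Cdh17 took the place of Alpi among the 5 related genes called. With 1 library left out the related genes called ranged from 2 to 5, where 5 were called in all, being 2 without shBrca2 3, 2 without shControl 2, and 3 each without shBrca2 2 and without shControl 3. For Brca2 the log2 value lay between -1.70 and -1.46, and its call was lost without shBrca2 2, without shBrca2 3 and without shControl 2 (adjusted p of 0.152, 0.233 and 0.371 by DESeq2), while with TMM factors and after the filter for 10 counts it had no adjusted p. For the other genes that the naming rule took, 406 of 450 comparisons kept direction and call, 26 lost the call, 4 gained it and 14 turned direction. The turned values all came with 1 library left out and lay near 0. The ranges were -0.75 to 0.12 for Fabp5, -0.17 to 0.00024 for Gcat, -0.19 to 0.082 for Klf5, -0.15 to 0.050 for Krt20, -0.031 to 0.073 for Plin2, -0.19 to 0.21 for Plxnb2, -0.051 to 0.14 for Rbp4 and -0.029 to 0.17 for Spr. Cdh17 gained a call with TMM factors, with total counts as size factors, after the filter for 10 counts and without shControl 1. List medians were added after seeing the data. The enterocyte median ranged from 0.39 to 0.92 and the hepatocyte median from 0.57 to 0.88 over the alternatives. The genes with an adjusted p differed between the fits, so these ranges are not those of fixed lists. The cause was not tested for the other changes.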
